A study of Mus musculus with 12 samples.

Results

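The p53 death effector targets examined here are 10 mouse genes, Bbc3, Bax, Pmaip1, Fas, Tnfrsf10b, Perp, Eda2r, Aen, Apaf1 and Pidd1. They were taken by name, with no measured value in the rule, but with earlier results of these data known. All 10 were matched by Ensembl identifier to a row of the 28991 gene identifiers in the count table. RNA was sequenced from the kidneys of 12 male mice, 8 weeks old and of the inbred strain BALB/c, in 4 groups of 3. Cisplatin+Dichloroacetate mice (the combination) received 250 mg/kg dichloroacetate each day over 5 days, followed by 1 injection of 20 mg/kg cisplatin alongside further dichloroacetate. Cisplatin mice had saline for 5 days and then the same cisplatin dose, and in both cisplatin groups kidneys were taken 24 h after that dose. Dichloroacetate mice had 250 mg/kg of that drug each day over 6 days, and Saline mice, the control, had saline on the same plan. Injections were intraperitoneal, and the labels name no transgene or engineered allele. They do not say when the mice without cisplatin were killed. Cisplatin is a platinum drug that crosslinks DNA and injures the kidney tubule. Dichloroacetate inhibits the pyruvate dehydrogenase kinases, and the study's title is about its use against cisplatin injury of the kidney.

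The transcription factor p53, encoded by Trp53, is held low by the ubiquitin ligase Mdm2 and accumulates after DNA damage. It then switches on genes that halt the cell cycle and genes that can kill the cell. The death genes act at separate steps. Surface receptors of the tumour necrosis factor family (Fas, Tnfrsf10b and Eda2r) bind ligands from outside, the BH3-only proteins PUMA (Bbc3) and NOXA (Pmaip1) disable the BCL2 guardians, Bax opens the mitochondrial outer membrane, and Apaf1 assembles the apoptosome that activates caspase-9. In the kidney, loss of p53 in the proximal tubule is known to lessen cisplatin injury in mice.

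The p53 response element is a pair of like half-sites, each 10 bases long. RefSeq promoter windows (build GRCm38.p6) ran from 250 bases before to 50 bases after a transcription start. Windows of 7 of the 10 genes are reported, 10 windows in all because Bbc3 has 3 and Aen 2. No window of Perp, Tnfrsf10b or Pmaip1 is reported, so nothing is said here of their promoters. The counts below therefore cover the reported windows only, not all 10 genes. Each window was searched for the p53 response element as 2 half-sites 0 to 13 bases apart, with the core C and G of each half-site required and at most 3 mismatches over the pair. The half-site reads the same on both strands. Such a pair was in 5 of the 10 windows, which belong to 3 genes (Bbc3, Bax and Aen), and in 15.6% of all 32851 windows. The 2 Aen windows overlap and hold the same pair. A stricter limit of 2 mismatches was met by the Bax window and by 4.09% of all windows. No pair was found in the windows of Eda2r, Fas, Apaf1 and Pidd1, which says only that these letters are not in that stretch. Printed here are windows of the 3 genes with a match and that of Eda2r, the gene with the steepest response to cisplatin, each written 5′ to 3′ on the gene's strand with the half-sites in capitals.
Bbc3 (chr7:16309333-16309632, plus strand): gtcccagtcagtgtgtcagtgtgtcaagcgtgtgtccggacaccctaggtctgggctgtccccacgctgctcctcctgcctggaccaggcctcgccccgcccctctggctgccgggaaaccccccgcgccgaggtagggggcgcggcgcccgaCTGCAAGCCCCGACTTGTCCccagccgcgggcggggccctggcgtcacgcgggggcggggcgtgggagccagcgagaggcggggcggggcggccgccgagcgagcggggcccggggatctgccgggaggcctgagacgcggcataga
Bax (chr7:45466849-45467148, minus strand): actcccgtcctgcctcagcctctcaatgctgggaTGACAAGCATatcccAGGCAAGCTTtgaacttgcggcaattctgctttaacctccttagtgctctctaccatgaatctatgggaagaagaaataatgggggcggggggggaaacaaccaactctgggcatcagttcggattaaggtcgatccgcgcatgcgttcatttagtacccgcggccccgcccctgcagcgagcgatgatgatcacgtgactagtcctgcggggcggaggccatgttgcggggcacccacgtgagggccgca
Aen (chr7:78895808-78896107, plus strand): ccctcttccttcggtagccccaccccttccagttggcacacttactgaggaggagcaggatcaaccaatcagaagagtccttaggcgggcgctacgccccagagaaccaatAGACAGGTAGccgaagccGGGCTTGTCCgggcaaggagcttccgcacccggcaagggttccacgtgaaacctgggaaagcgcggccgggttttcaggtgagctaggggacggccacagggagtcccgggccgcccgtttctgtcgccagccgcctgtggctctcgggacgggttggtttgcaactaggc
Eda2r (chrX:97377160-97377459, minus strand): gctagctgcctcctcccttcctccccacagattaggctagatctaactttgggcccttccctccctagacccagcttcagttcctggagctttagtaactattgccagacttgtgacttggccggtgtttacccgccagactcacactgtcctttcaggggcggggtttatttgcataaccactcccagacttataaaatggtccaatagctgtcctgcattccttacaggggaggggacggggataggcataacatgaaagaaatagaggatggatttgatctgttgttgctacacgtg
The Bbc3 pair begins 97 bases before that transcription start, has no gap and carries 3 mismatches. In Bax the pair lies 216 bases before the start with a gap of 5 bases, and in Aen 139 bases before the start with a gap of 8 bases. The match is a description of letters, and binding of p53 was not measured.

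Library totals ran from 29505929 to 35082408 counts in the combination, 29614283 to 35925471 in Cisplatin, 41525403 to 62237514 in Dichloroacetate and 38236592 to 55832441 in Saline mice. Levels are CPM, counts normalised to sequencing depth with TMM scaling, and each library is taken as 1 mouse. Calls were made below 0.05 of adjusted p, the Benjamini-Hochberg value of the 2-sided edgeR quasi-likelihood test over all 20370 genes that passed a filter on low counts. All 10 death effector genes passed that filter. Of the proximal tubule markers, 8 of 8 were detected in every group. Those markers (Slc34a1, Lrp2, Slc5a2, Slc5a12, Slc22a6, Slc7a13, Cubn and Aqp1) summed to 5059 to 5505 CPM in combination, 2864 to 3377 CPM in Cisplatin, 8765 to 9838 CPM in Dichloroacetate and 9394 to 10462 CPM in Saline mice. They fell in Cisplatin mice and had a higher interaction for 8 of 8. In whole tissue, fewer cells of a type and less RNA per cell cannot be told apart, and the part of changing cell proportions in the results was not tested.

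Cisplatin raised all 10 death effector genes above Saline, against 29.7% of all genes tested that rose and 60.1% called in either direction. The median log2 fold change was 2.25 over the 10 genes and -0.01 over all genes. Every Cisplatin library stood above every Saline library for each of the 10, which held for 32.2% of all genes. The responses spanned from a 1.86-fold rise of Apaf1 to a 52.7-fold rise of Eda2r. Scaling by library totals alone moved the median of all genes in this comparison to 0.26, with 9749 genes higher and 3596 lower in place of 6048 and 6196, and all 10 genes still rose.

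**Figure D1:**
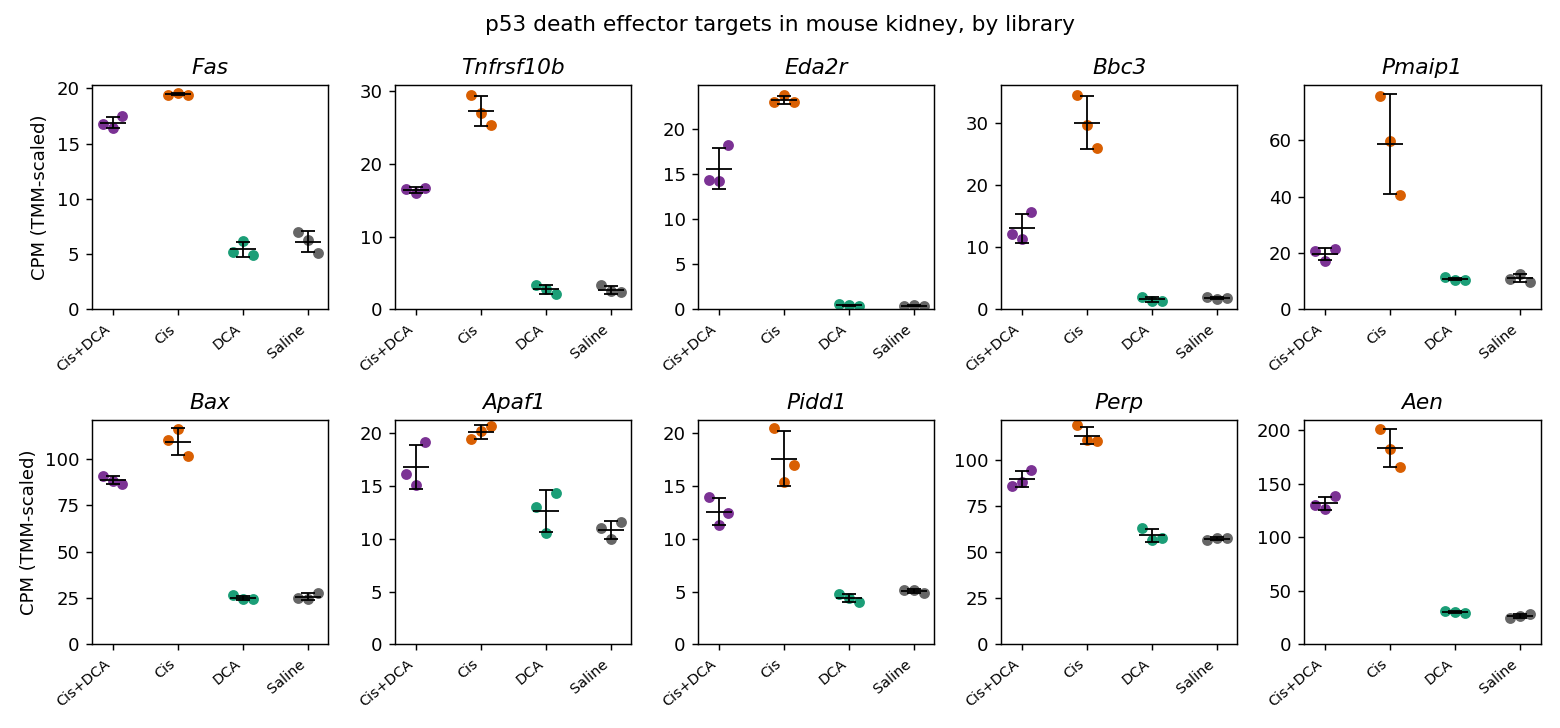
CPM of each death effector gene (vertical axes, each from 0) in Cisplatin+Dichloroacetate (Cis+DCA), Cisplatin (Cis), Dichloroacetate (DCA) and Saline mice; each point is 1 library, and the bar and whiskers are the mean and SD of 3. All 10 genes are highest in Cisplatin, and their combination libraries lie between the Cisplatin libraries and both groups without cisplatin.

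The death receptors differed widely in their starting level and response. Eda2r (ENSMUSG00000034457, chromosome X, 97333840 to 97377216, build mm10) encodes XEDAR, the receptor of the ectodysplasin splice form EDA-A2. It was close to silent without cisplatin, at 32, 18 and 16 counts in Dichloroacetate and 18, 25 and 15 counts in Saline libraries. Eda2r stood at 14.4, 14.3 and 18.3 CPM in the combination and 23.1, 23.8 and 23.0 CPM in Cisplatin mice, against 0.559, 0.448 and 0.431 CPM in Dichloroacetate and 0.399, 0.480 and 0.431 CPM in Saline mice. The Cisplatin libraries lay within 1 CPM of each other, and no cisplatin-treated library came near one without cisplatin. Its log2 fold change was 5.72 (SE 0.14, adjusted p = 6.4e-12) for Cisplatin over Saline and 4.99 (SE 0.14, adjusted p = 6.2e-11) for the combination over Dichloroacetate.

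Tnfrsf10b (ENSMUSG00000022074, chromosome 14, 69767472 to 69784411) encodes the mouse death receptor for TRAIL. Its level was 16.6, 15.9 and 16.6 CPM in combination, 29.5, 27.0 and 25.3 CPM in Cisplatin, 3.37, 2.86 and 2.10 CPM in Dichloroacetate and 3.34, 2.47 and 2.36 CPM in Saline mice. The combination libraries were tightly grouped and lay wholly below Cisplatin and wholly above both groups without cisplatin. Cisplatin raised it 9.95-fold over Saline, or 3.32 (SE 0.15, adjusted p = 6.9e-10) on the log2 scale. After dichloroacetate the rise was 5.81-fold over Dichloroacetate (2.54, SE 0.15, adjusted p = 2.5e-08).

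Fas (ENSMUSG00000024778, chromosome 19, 34290666 to 34327772), the receptor of Fas ligand, responded least of the 3 receptors. It measured 16.8, 16.4 and 17.5 CPM in combination and 19.4, 19.6 and 19.4 CPM in Cisplatin libraries, and 5.22, 6.19 and 4.88 CPM in Dichloroacetate and 6.98, 6.31 and 5.09 CPM in Saline libraries. Its 3 Cisplatin values were nearly the same (coefficient of variation 0.437%), and the combination values sat just under them without overlap. The log2 fold change was 1.66 (SE 0.11, adjusted p = 1.8e-08) for Cisplatin over Saline and 1.64 (SE 0.11, adjusted p = 8.2e-08) for the combination over Dichloroacetate.

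At the mitochondrion, Bbc3 had the largest fold rise of the 3 genes in both cisplatin-treated groups. Bbc3 (ENSMUSG00000002083, chromosome 7, 16308393 to 16318205), which encodes PUMA, had 12.2, 11.4 and 15.8 CPM in combination, 34.5, 29.8 and 26.0 CPM in Cisplatin, 2.08, 1.44 and 1.43 CPM in Dichloroacetate and 1.95, 1.71 and 1.87 CPM in Saline mice. The rise over Saline was 16.4-fold (4.03, SE 0.17, adjusted p = 4.1e-10) in Cisplatin mice. In the combination it was 7.77-fold over Dichloroacetate (2.96, SE 0.17, adjusted p = 2.5e-08), and the combination libraries lay wholly between Cisplatin and both groups without it.

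Pmaip1 (ENSMUSG00000024521, chromosome 18, 66458533 to 66465565), which encodes NOXA, an inhibitor of MCL1, had the most uneven Cisplatin group of the 10. Its Cisplatin libraries held 75.7, 59.8 and 40.5 CPM, a coefficient of variation of 30.1%. Combination libraries held 20.6, 17.2 and 21.4 CPM, Dichloroacetate libraries 11.4, 10.5 and 10.5 CPM and Saline libraries 10.9, 12.5 and 9.66 CPM. The combination lay close to both groups without cisplatin, though above every one of their libraries, and below the lowest Cisplatin library. The log2 fold change over Saline was 2.41 (SE 0.18, adjusted p = 9e-08) in Cisplatin mice, and over Dichloroacetate 0.86 (SE 0.18, adjusted p = 0.002) in combination mice.

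Bax (ENSMUSG00000003873, chromosome 7, 45461697 to 45466898) is the pore former of the outer membrane. It reached 90.9, 88.1 and 86.7 CPM in combination and 110.3, 116 and 102 CPM in Cisplatin mice, with 26.4, 24.2 and 24.3 CPM in Dichloroacetate and 24.7, 24.7 and 27.7 CPM in Saline mice. Both cisplatin-treated groups were several times higher than those without it, with a smaller gap between them. Its log2 fold change was 2.09 (SE 0.07, adjusted p = 4.5e-11) for Cisplatin over Saline and 1.83 (SE 0.07, adjusted p = 3.5e-10) for the combination over Dichloroacetate. In GENCODE M21, 192 exon bases of Bax (12.2%) are shared with the gene model Gm45808 on the same strand, which was not analysed here.

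The caspase platforms are Apaf1 and Pidd1. Apaf1 (ENSMUSG00000019979, chromosome 10, 90989311 to 91082770), the scaffold of the apoptosome and at 93.5 kb the longest of the genes, had 16.1, 15.1 and 19.2 CPM in combination, 19.5, 20.2 and 20.7 CPM in Cisplatin, 13.1, 10.5 and 14.4 CPM in Dichloroacetate and 11.0, 9.98 and 11.6 CPM in Saline mice. Libraries with and without cisplatin did not overlap, but the rise was the smallest of the 10, 0.89 (SE 0.11, adjusted p = 1.2e-05) on the log2 scale for Cisplatin over Saline. For the combination over Dichloroacetate it was 0.41 (SE 0.11, adjusted p = 0.01), and 0.29 (adjusted p = 0.063) without Cisplatin+Dichloroacetate replicate 3. Pidd1 (ENSMUSG00000025507, chromosome 7, 141438113 to 141444025) encodes the scaffold of the PIDDosome, which activates caspase-2. Its values were 13.9, 11.4 and 12.5 CPM in combination, 20.5, 15.4 and 17.0 CPM in Cisplatin, 4.80, 4.40 and 3.96 CPM in Dichloroacetate and 5.18, 5.16 and 4.83 CPM in Saline libraries, with no overlap between mice with and without cisplatin. The log2 fold change was 1.80 (SE 0.12, adjusted p = 2.1e-08) for Cisplatin over Saline and 1.51 (SE 0.12, adjusted p = 4.4e-07) for the combination over Dichloroacetate.

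Perp (ENSMUSG00000019851, chromosome 10, 18845020 to 18857073), a tetraspan membrane protein that is also a part of desmosomes, had 86.1, 88.2 and 94.7 CPM in combination and 119, 111 and 111 CPM in Cisplatin libraries, against 63.3, 56.7 and 57.8 CPM in Dichloroacetate and 56.6, 57.7 and 57.7 CPM in Saline libraries. No library with cisplatin overlapped one without it, and its rise was 1.98-fold over Saline (0.98, SE 0.06, adjusted p = 9.5e-09) and 1.51-fold for the combination over Dichloroacetate (0.60, SE 0.06, adjusted p = 3.2e-06). Aen (ENSMUSG00000030609, chromosome 7, 78895854 to 78911209), a nuclease that helps to degrade DNA in apoptosis, measured 129.9, 126 and 138 CPM in combination, 201, 182 and 166 CPM in Cisplatin, 30.9, 29.6 and 29.2 CPM in Dichloroacetate and 24.8, 26.5 and 28.5 CPM in Saline mice. Both cisplatin-treated groups stood far above those without it and apart from each other. The log2 fold change of Aen was 2.78 (SE 0.08, adjusted p = 2e-11) for Cisplatin over Saline and 2.14 (SE 0.08, adjusted p = 3.4e-10) for the combination over Dichloroacetate.

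In mice also treated with dichloroacetate, cisplatin again raised all 10 genes over dichloroacetate alone (background 21.5% rising and 40.7% called), with no overlap of libraries for any of them (background 28.5%). The median log2 fold change was 1.73 over the 10 and 0.01 over all genes. Scaling by totals alone put the median of all genes at 0.20, with 8458 genes higher and 2225 lower in place of 4377 and 3909. Set against Saline, the combination was also higher for all 10 genes (20.6% of all genes rose, 40.2% were called), from 0.63 (SE 0.11) for Apaf1 to 5.15 (SE 0.14) for Eda2r on the log2 scale. Scaling by totals alone gave 7482 higher and 2508 lower genes there, in place of 4203 and 3986.

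For dichloroacetate on its own against Saline, none of the 10 genes was called by edgeR, where 0.309% of all genes were called (63 genes, 26 higher and 37 lower), and none was called by DESeq2. That count over all genes was unstable, at 30 higher and 104 lower with totals alone, 182 higher and 154 lower with DESeq2, and between 15 and 126 calls when single libraries were left out. At an unadjusted p below 0.05, 1 of the 10 differed. This was Aen, at 29.9 ± 0.908 CPM in Dichloroacetate and 26.6 ± 1.84 CPM in Saline mice (SD, n = 3 each), which is 0.17 on the log2 scale (SE 0.08, adjusted p = 0.4). The 10 values were split evenly, 5 above and 5 below 0, and ranged from -0.20 for Pidd1 to 0.22 for Apaf1. Libraries of the groups did not overlap for 2 of the 10, Aen and Pidd1 (background 16.0%). The widest 95% interval was that of Eda2r, -0.30 to 0.61, so small differences of the scarce genes were not detectable at this depth.

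Most death effector genes were lower when dichloroacetate accompanied cisplatin than with cisplatin alone. Of the 10, 8 fell and none rose, against 13.5% of all genes that fell and 31.6% called. Each combination library stood below each Cisplatin library for all 10, which held for 21.6% of all genes. The median log2 fold change was -0.48 over the 10 and 0.01 over all genes. With totals alone the median of all genes was -0.11, and 2317 genes were higher and 5134 lower in place of 3688 and 2753.

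The depth of that fall differed between genes. Pmaip1 fell the furthest, to 19.7 ± 2.24 CPM in the combination, against 58.6 ± 17.6 CPM in Cisplatin mice (SD, n = 3 each), which is -1.57 (SE 0.17, adjusted p = 3e-05) on the log2 scale. Bbc3 followed at -1.20 (SE 0.14, adjusted p = 4e-05), with 13.1 ± 2.35 CPM in the combination and 30.1 ± 4.24 CPM in Cisplatin mice. As ratios of Cisplatin to the combination these are 2.97 for Pmaip1 and 2.30 for Bbc3; the other 8 genes had smaller ratios. Among the receptors, Tnfrsf10b changed by -0.73 (SE 0.13, adjusted p = 0.00066) and Eda2r by -0.57 (SE 0.10, adjusted p = 0.00049). The 4 others that fell were Pidd1 at -0.49, Aen at -0.48, Perp at -0.34 and Bax at -0.30. Fas (-0.20, 95% interval -0.42 to 0.01, adjusted p = 0.14) and Apaf1 (-0.26, 95% interval -0.50 to -0.02, adjusted p = 0.09) were not called. Scaled by totals alone, or fitted on these 2 groups only, both passed the threshold, with adjusted p of 0.031 and 0.020 for Fas and 0.011 and 0.037 for Apaf1. Apaf1 also passed without Cisplatin+Dichloroacetate replicate 3 (-0.39, adjusted p = 0.022) and without Dichloroacetate replicate 2 (-0.26, adjusted p = 0.047).

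The same pattern can be put as a share of the cisplatin excess over Saline, in mean CPM, that was present in the combination. It was 18.3% for Pmaip1 and 39.9% for Bbc3, 55.7% for Tnfrsf10b, 57.8% for Perp, 60.0% for Pidd1, 64.1% for Apaf1, 66.6% for Eda2r, 67.1% for Aen, 75.2% for Bax and 80.7% for Fas. These shares use the same Saline and Cisplatin mice for every gene and carry no test.

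Whether the response to cisplatin itself differed was tested by the interaction, which subtracts the log2 rise of Cisplatin over Saline from that of the combination over Dichloroacetate. It was negative for all 10 genes and called for 7, where 7.15% of all genes were called lower and 18.6% in either direction. The median was -0.57 over the 10 and 0.03 over all genes; totals alone gave 1712 genes higher and 2383 lower in place of 2327 and 1456. Pmaip1 had the largest difference at -1.54 (SE 0.25, adjusted p = 0.0012), then Bbc3 at -1.07 (SE 0.24, adjusted p = 0.008). Aen had -0.65 (SE 0.10, adjusted p = 0.0011) and Perp -0.39 (SE 0.08, adjusted p = 0.0056). These 4 calls were kept in all 12 fits that left out 1 library. Tnfrsf10b at -0.78 (SE 0.21, adjusted p = 0.018) lost its call without Saline replicate 2 (-0.70, adjusted p = 0.056) or Dichloroacetate replicate 1 (-0.60, adjusted p = 0.067). Eda2r at -0.73 (SE 0.23, adjusted p = 0.045) lost it in 11 of the 12 fits, with values between -0.89 and -0.58, and Apaf1 at -0.48 (SE 0.16, adjusted p = 0.048) in 9 of the 12, between -0.62 and -0.39. The count of 7 dropped to 4 without Saline replicate 2 and also without Dichloroacetate replicate 1.

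Bax, Pidd1 and Fas had no called interaction. For Bax the value was -0.27 (95% interval -0.46 to -0.07, adjusted p = 0.059), and it passed the threshold without Saline replicate 3 (-0.32, adjusted p = 0.022), without Cisplatin replicate 3 (-0.31, adjusted p = 0.024), with DESeq2 (adjusted p = 0.028) and with 2 other scalings. Pidd1 had -0.29 (95% interval -0.64 to 0.07, adjusted p = 0.26). Fas had -0.02 (95% interval -0.35 to 0.30, adjusted p = 0.94), so a reduction of its response as large as that of Bbc3 or Pmaip1 lies outside the interval. With 1 library left out, the value of Fas ran between -0.12 and 0.09. Differences between the interactions of single genes were not tested.

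**Figure D2:**
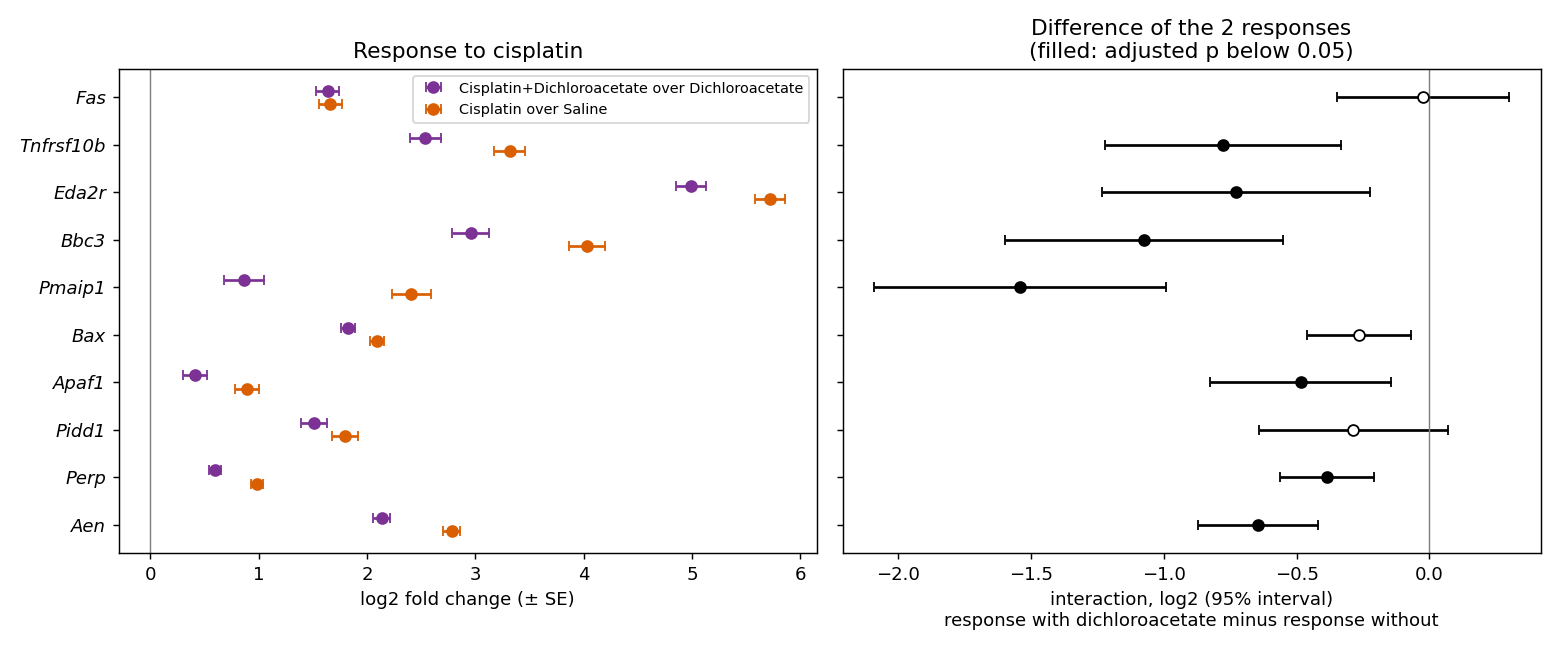
Left, log2 fold change with its SE for the combination over Dichloroacetate and for Cisplatin over Saline, 1 line per gene; right, their difference (the interaction) with its 95% interval, filled where the adjusted p is below 0.05. All 10 differences lie below 0, from -1.54 for Pmaip1 to -0.02 for Fas.

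Compared per kilobase of exon, the genes kept much of their order. The level of Bax was 56.2 ± 1.35 CPM per kb in combination, 69.4 ± 4.56 in Cisplatin, 15.8 ± 0.790 in Dichloroacetate and 16.3 ± 1.10 in Saline mice (SD, n = 3 each). Perp had 45.9 ± 2.29, 58.0 ± 2.42, 30.4 ± 1.80 and 29.4 ± 0.311 CPM per kb in the same groups. Perp was therefore the highest of the 10 in both groups without cisplatin and Bax in both groups with it, with no overlap between the pair in any group. Aen came next in all 4 groups, overlapping Pmaip1 in Saline only. Bbc3 ranked 6 in the combination and 5 in Cisplatin mice, against 8 in both groups without cisplatin. Eda2r was last without cisplatin, at 0.0814 ± 0.0118 CPM per kb in Dichloroacetate and 0.0741 ± 0.00691 in Saline mice, and Apaf1 was last with it, at 1.86 ± 0.232 in combination and 2.23 ± 0.0708 in Cisplatin mice. Neighbours whose libraries overlapped were Pmaip1 with Bbc3, Tnfrsf10b with Pidd1 and Pidd1 with Eda2r in the combination, Pmaip1 with Bbc3 and Eda2r with Pidd1 in Cisplatin, Pidd1 with Bbc3 in Dichloroacetate, and Aen with Pmaip1 and Apaf1 with Pidd1 in Saline mice.

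**Figure D3:**
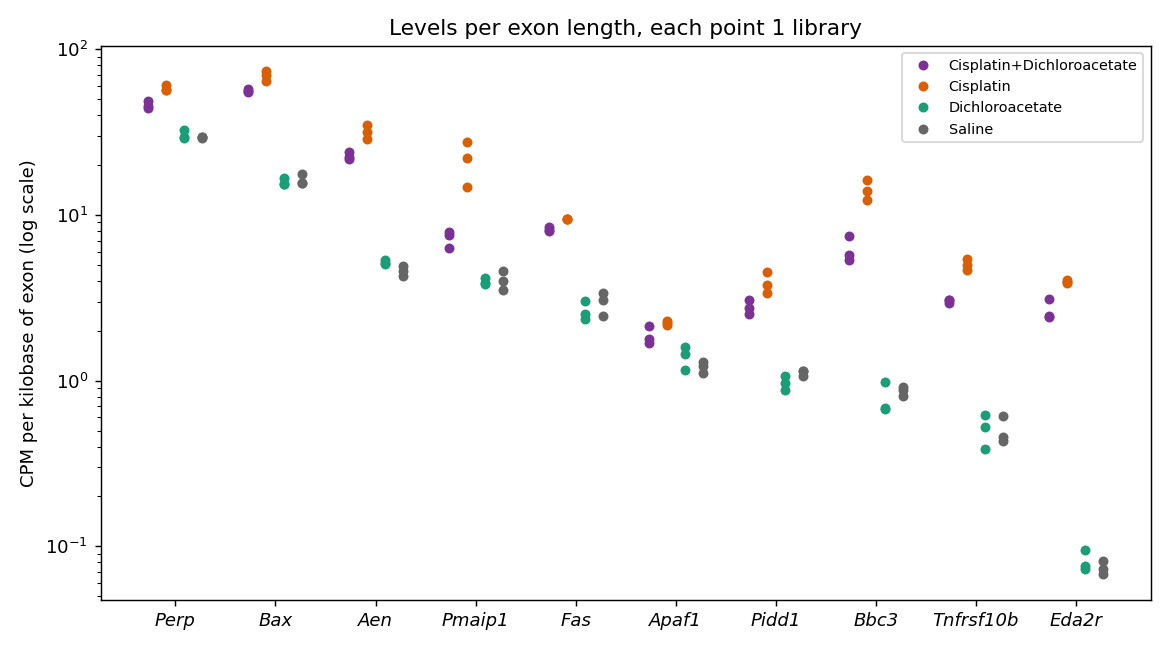
CPM per kilobase of exon on a log axis for the 10 genes, ordered by their Saline mean; each point is 1 library, with Cisplatin+Dichloroacetate, Cisplatin, Dichloroacetate and Saline from left to right within a gene. Eda2r spans the widest range, at about 4 in Cisplatin and under 0.1 in both groups without it, and Apaf1 the narrowest.

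Genes with the most similar pattern were sought among 16135 genes with a mean of at least 1 CPM. The measure was the root mean square difference over the 4 group means of log2 CPM, each gene centred on its own mean. It is in log2 units and carries no test. The nearest genes, with that distance, were Lif (0.210) and Gsta1 (0.218) for Bbc3, Slmapos2 (0.0549) and Slc19a2 (0.0732) for Bax, and Egfros (0.0413) and Brca1 (0.0512) for Pmaip1. For the receptors they were Dcaf4 (0.0410) and Acot2 (0.0477) for Fas, C3 (0.0445) and Trp53inp1 (0.0570) for Tnfrsf10b, and Inka2 (0.0645) and Gstp3 (0.0678) for Eda2r. For Perp they were Ampd2 (0.00641) and Armc6 (0.0185), for Aen Lcn2 (0.0893) and Zfp385a (0.122), for Apaf1 6430571L13Rik (0.0133) and B930036N10Rik (0.0172), and for Pidd1 Ddit4l (0.0333) and Map3k6 (0.0373). Within the 10, Perp and Apaf1 were closest to each other (distance 0.0937), as were Fas and Pidd1 (0.0976). The nearest of the 10 to Eda2r was Bbc3 (0.914), the widest such distance.

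Other p53 targets, of growth arrest, feedback and repair, were taken as a list of 24 genes. Under Cisplatin over Saline, 20 rose, 2 fell and 2 were not called (median 1.97). Cdkn1a, the gene of the cyclin-dependent kinase inhibitor p21, had 165, 153 and 207 CPM in combination, 408, 391 and 332 CPM in Cisplatin, 3.34, 2.76 and 1.81 CPM in Dichloroacetate and 4.72, 3.18 and 3.31 CPM in Saline mice. Its response was larger than that of any death effector gene, at 6.65 (SE 0.21), followed in the list by Psrc1, whose protein binds the mitotic spindle, at 5.71 (SE 0.18). Next came the Akt repressor Phlda3 at 5.39 (SE 0.16). The 2 that fell were Sesn1, a sestrin, at -0.62 (SE 0.08) and the DNA damage recognition gene Ddb2 at -0.37 (SE 0.08). For the combination over Cisplatin, 16 fell, 1 rose (Sesn1, 0.34) and 7 were not called (median -0.41), and for the interaction 13 were lower, 2 higher (Sesn1 at 0.45 and Ddb2 at 0.34) and 9 not called (median -0.45). Cdkn1a fell relative to Cisplatin (-1.11, SE 0.16, adjusted p = 0.00017), with an interaction of -0.63 (SE 0.27, adjusted p = 0.12). Mdm2 held 135, 129 and 138 CPM in combination, 234, 202 and 186 CPM in Cisplatin, 47.6, 45.4 and 45.2 CPM in Dichloroacetate and 43.2, 43.6 and 41.5 CPM in Saline mice, and its interaction was -0.74 (SE 0.10, adjusted p = 0.00042). The 24 and the 10 genes were not tested against each other.

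Of 11 genes for p53 and its regulators, 10 could be tested, and 1 rose, 5 fell and 4 were not called under Cisplatin over Saline. The gene that rose was Trp53 itself, with 34.4, 33.1 and 38.0 CPM in combination, 61.3, 58.5 and 49.0 CPM in Cisplatin, 27.8, 25.0 and 27.0 CPM in Dichloroacetate and 29.7, 27.5 and 27.9 CPM in Saline mice. All Cisplatin libraries were above all others, and the log2 fold change of the combination over Cisplatin was -0.68 (SE 0.08, adjusted p = 4.3e-05). Its interaction was -0.59 (SE 0.11, adjusted p = 0.0033). The largest falls under Cisplatin over Saline were those of Trp63, Atm and the p53 kinase Hipk2, the last at -0.51. The p53 relative Trp63, at -1.75 (SE 0.34), was scarce, with 0.463 ± 0.144 CPM in Cisplatin and 1.56 ± 0.792 CPM in Saline mice. The damage kinase Atm had 6.44 ± 0.224 CPM and 12.9 ± 2.54 CPM in the same groups (SD, n = 3 each). The p53 inhibitor Mdm4 (-0.22) and the deubiquitinase Usp7 (-0.14) fell less. For the combination over Cisplatin, 3 of the list rose, which were Atm at 0.71, Hipk2 at 0.45 and the checkpoint kinase Chek2 at 0.56, and Trp53 alone fell. For the interaction Atm (0.88) and Chek2 (0.63) were higher and Trp53 was lower.

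The partners of these proteins (24 ligands, adaptors, BCL2 relatives and caspases, 23 tested) moved in both directions. Under Cisplatin over Saline 10 rose, 8 fell and 5 were not called, with a median of 0.15. Neither of the ligand genes that could be tested rose under Cisplatin. Tnfsf10, which encodes TRAIL, the ligand of Tnfrsf10b, had 29.0, 29.2 and 29.1 CPM in combination, 21.2, 20.7 and 23.9 CPM in Cisplatin, 91.4, 82.3 and 90.4 CPM in Dichloroacetate and 70.0, 79.6 and 73.3 CPM in Saline mice. Its log2 fold change was -1.76 (SE 0.07, adjusted p = 2.3e-10) under Cisplatin, and the combination was above Cisplatin by 0.41 (SE 0.07, adjusted p = 0.00057). Eda, which encodes ectodysplasin, the source of the ligand of Eda2r, was scarce at 15, 24 and 11 counts in combination, 12, 18 and 20 in Cisplatin, 62, 52 and 31 in Dichloroacetate and 55, 54 and 31 in Saline libraries, and fell under Cisplatin (-1.19, SE 0.27, adjusted p = 0.0016). Fasl had 0 to 4 counts in every library and was not tested, so a change in it was not detectable at this depth.

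Inside the cell, partners that rose under Cisplatin over Saline included the BCL2 guardians Bcl2l1 at 1.09 (SE 0.06) and Mcl1 at 0.84 (SE 0.06). Largest among the falls were the ectodysplasin receptor Edar at -1.84 (SE 0.36), Tnfsf10, and the PIDDosome adaptor Cradd at -1.50 (SE 0.13). Edar was scarce, at 0.401 ± 0.212 CPM in Cisplatin and 1.48 ± 0.274 CPM in Saline mice (SD, n = 3 each). For the combination over Cisplatin, 3 partners rose, 5 fell and 15 were not called. Those that rose were Cradd at 0.96, Tnfsf10 and the cytochrome c gene Cycs at 0.29, and those that fell ran from Bak1 at -0.32, the relative of Bax, through Mcl1 (-0.29), Bid (-0.25) and Casp9 (-0.21) to Cflar at -0.20. The interaction was called for 2 of the 23, both higher, which were the scarce Edar at 1.75 (SE 0.52) and Cradd at 0.94.

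**Figure D4:**
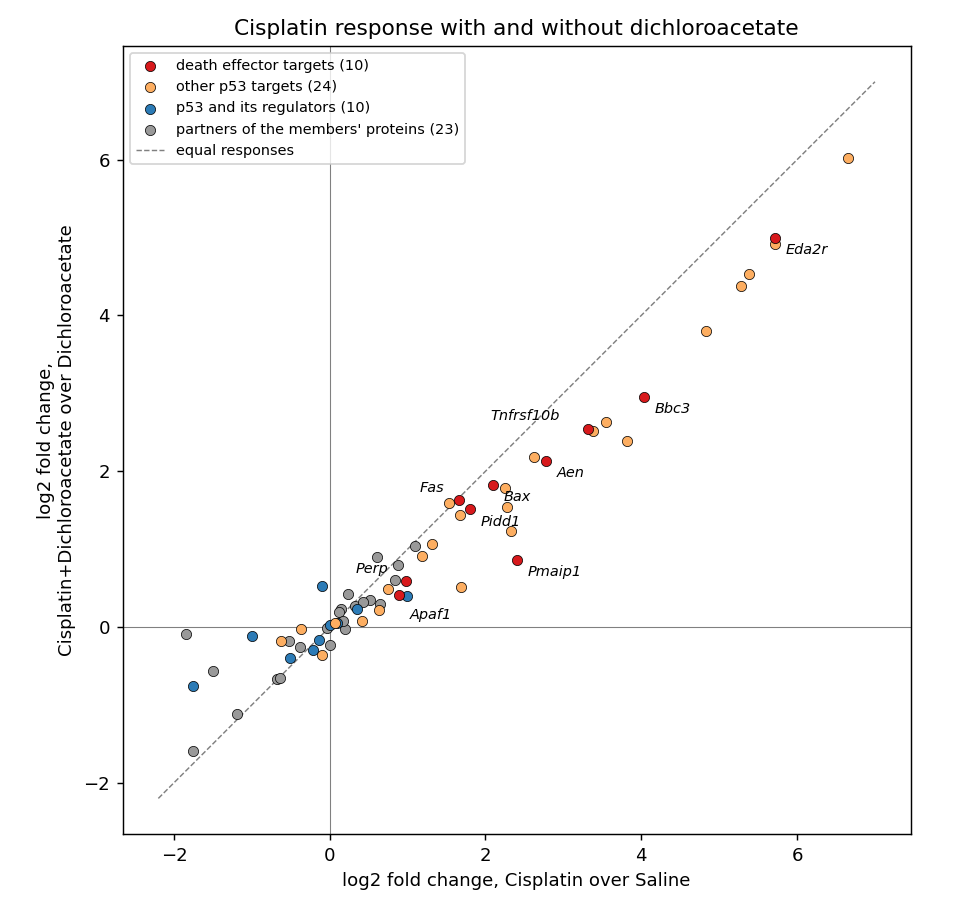
Log2 fold change of the combination over Dichloroacetate (vertical) against that of Cisplatin over Saline (horizontal), which share no library, for the 10 death effector genes and the 3 lists of related genes; the dashed line marks equal responses. All 10 death effector genes lie below that line, Fas beside it and Pmaip1 farthest from it.

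Markers of other cells that carry death receptors were read as summed CPM. T and NK lymphocyte markers (8 genes, 2 with enough counts to test, none at 0 in a whole group) summed to 3.41 to 4.05 in combination, 4.17 to 5.85 in Cisplatin, 2.59 to 3.69 in Dichloroacetate and 3.40 to 3.88 in Saline mice, so every Cisplatin library was above all others. Neutrophil markers (6 genes) summed to 19.2 to 23.6 in combination, 26.7 to 31.7 in Cisplatin, 22.9 to 26.1 in Dichloroacetate and 17.6 to 26.2 in Saline mice, again with Cisplatin above all others. The death effector genes were also highest in Cisplatin. Unlike them, the combination sums of both marker lists overlapped those of both groups without cisplatin. Macrophage markers (8 genes) summed to 79.3 to 90.8, 101 to 116, 90.3 to 154 and 111 to 133 CPM in the same groups, and endothelial markers (7 genes) to 182 to 234, 217 to 226, 221 to 279 and 251 to 340.5 CPM. No gene of these lists was at 0 throughout a group. Under Cisplatin over Saline, called changes were 1 rise and 0 falls among 2 lymphocyte, 2 and 0 among 5 neutrophil, 1 and 3 among 8 macrophage, 0 and 4 among 7 endothelial and 0 and 8 among 8 proximal tubule markers tested. The markers that rose, named here after their values were seen, were Trac (0.86) of lymphocytes, S100a8 (1.84) and S100a9 (1.71) of neutrophils and Cd68 (4.00) of macrophages. For the combination over Cisplatin, all 8 proximal tubule markers rose, and called falls were those of Trac (-0.55) among 2 lymphocyte, S100a9 (-0.90) and Ly6g (-0.41) among 5 neutrophil and Cd68 (-2.77) among 8 macrophage markers tested. None of the 7 endothelial markers was called. The part of these cells in the levels of the death effector genes was not tested.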

How the data were processed

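Kidney RNA of 12 mice was sequenced from libraries made with an Illumina TruSeq RNA kit, per the labels' protocols. Build mm10 and the tools TopHat, Trimmomatic, HTSeq, Cufflinks, DESeq and bedtools come from the submitters' processing notes, which give neither roles nor versions. No source used here states whether counting was stranded. The authors deposited whole-number read counts per Ensembl gene, 1 column per library, which gave every result. Their table of scaled values was not used here. Of 28991 identifiers, 27955 matched GENCODE M21 (GRCm38, the assembly of mm10), which gave symbols, positions and exon lengths.

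Counts were fitted with edgeR 4.0.16 in R 4.3.3. Genes passing filterByExpr were scaled by TMM, and all 12 libraries entered 1 quasi-likelihood fit with a mean per group (8 residual degrees of freedom, biological coefficient of variation 0.0917). SE is the log2 fold change divided by the root of the F statistic. The fit was also run on simulated counts in which few genes changed, unlike in these data, so that run does not bear on the scaling. Replicate libraries differed beyond sampling noise (chi-square per degree of freedom 4.40 to 26.3), which does not by itself show separate mice. Each counted as 1 sample because the labels call replicates biological. Precision is limited by 3 mice a group, and also by depth for scarce genes, among them Eda2r without cisplatin, Eda, Edar and Fasl. Alternatives were 2 other scalings, 2 other filters, DESeq2 1.42.0, fits on the compared groups only, the replicate number as a block, and leaving out each library. The 10 genes, the 3 related lists and the 5 marker lists were chosen with earlier results of these data known. Named were all 10 genes, the 3 largest called rises and falls of each related list under Cisplatin over Saline, Trp53, Cdkn1a, Mdm2 and the 3 ligands, and the 2 nearest genes of each of the 10. 1 gene that this rule names is not reported here. Other list genes behind counts of 5 or fewer were named after their values were seen.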

Additional observations from a re-analysis of the deposited data

Results flagged for a closer look

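For 7 genes the log2 response to cisplatin differed between mice with and without dichloroacetate, by the interaction term of the edgeR fit over all 12 libraries (18.6% of all genes were called, 7.15% lower). The response with dichloroacetate minus that without was -1.54 for Pmaip1, -1.07 for Bbc3, -0.78 for Tnfrsf10b, -0.73 for Eda2r, -0.65 for Aen, -0.48 for Apaf1 and -0.39 for Perp. The values of Eda2r (adjusted p = 0.045) and Apaf1 (adjusted p = 0.048) lay close to the threshold. With 1 library left out in turn, Eda2r lost its call in 11 of 12 fits, Apaf1 in 9 and Tnfrsf10b in 2, and the count of 7 went as low as 4. Groups of 3 are too small for a search for single outlying libraries.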

How the results depend on the processing

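Across 19 alternatives the 10 genes rose under Cisplatin over Saline and under the combination over Saline in every fit, and none was called for Dichloroacetate over Saline. No called value of the 10 genes changed sign. Of 1130 values of single genes and comparisons, 1083 kept direction and call, 26 lost a call, 12 gained one and 9 uncalled values near 0 changed sign. Leaving out 1 library gave 9 to 10 genes called for the combination over Dichloroacetate, 8 to 9 for the combination over Cisplatin and 4 to 7 for the interaction. The number of all genes called for Dichloroacetate over Saline was 63, and it became 134 with totals alone, 119 without a filter, 336 with DESeq2, 15 when only those groups were fitted, 117 with the replicate block, and 15 to 126 with 1 library left out; the cause was not tested. Deviations of same-numbered libraries of different groups correlated at -0.10 to 0.15 (18 pairs, 4 above 0.1), and those of other numbers at -0.22 to 0.19 (36 pairs, 3 above 0.1). Between the combination and Dichloroacetate the same-numbered values were 0.08, 0.14 and 0.15, and those of other numbers ran from -0.13 to 0.01. Since not every same-numbered pair was above 0.1, the main fit did not treat the numbers as pairs. Whether the numbers mark a batch was not tested. With the replicate block, 10 genes were called under Cisplatin over Saline, 9 under the combination over Cisplatin, where Apaf1 gained its call (-0.27, adjusted p = 0.025), and 6 for the interaction, where Eda2r had an adjusted p of 0.054. The call of Eda2r was also lost without a filter (0.054) and with DESeq2 (0.060). Depth limits Fasl, with at most 4 counts in a library.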
